A study of Mus musculus with 12 samples.

Results

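Tumour RNA was compared with RNA of normal adjacent lung in 6 pairs of mouse libraries, each pair made of the tumour library and the lung library that carry the same prefix in their library names (M_37_2, M_37_3, M_38_2, M_39_1, M_39_3 and M_40_2). All 12 of the 12 libraries of the series entered: 6 tumour libraries, whose names contain _T, and 6 lung libraries, whose names contain _H, with treatment ignored. Visible tumours, named LLC in the labels without the name being spelled out, and normal lung next to them were dissected by hand. The treatments were HDM, given in the series title as house dust mite and described as chronic, and VEH, which the labels do not spell out. Each tissue and treatment is represented by 3 libraries. Strain, age, sex, dose and the route of exposure are not given in the sources used here, nor is what a prefix stands for, although the series text describes the adjacent tissue as matched.

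The prefixes and the treatment labels do not fully fit together. Prefixes M_37_2 and M_38_2 join a VEH lung with a VEH tumour, and M_39_1 and M_39_3 join an HDM lung with an HDM tumour. The remaining 2 of the 6 prefixes cross treatments: M_37_3 joins an HDM lung with a VEH tumour, and M_40_2 a VEH lung with an HDM tumour. If a prefix marked an animal with 1 treatment, its libraries would share a label, and the files do not say why these do not. The question here is what the tissue difference looks like when the prefixes are taken as given, how evenly it recurs over the 6 pairs, and whether libraries of a prefix resemble each other at all.

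As background, the lung is lined by alveolar type 1 cells, which form the gas exchange surface, and type 2 cells, which make surfactant. Airways are lined by club cells, which secrete proteins and metabolise foreign chemicals, and by ciliated cells, which move mucus. A dense capillary bed, fibroblasts, smooth muscle, mesothelium on the outer surface and resident macrophages complete the organ. A tumour adds dividing cells, and dividing cells transcribe replication genes before mitotic genes. Pairing each tumour with lung from the same source removes what both share, such as genotype or handling, where such a shared part exists.

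Cell division genes illustrate the pairs most directly, and their promoters carry short elements through which such genes are known to be controlled. In mitotic genes these are CCAAT boxes, bound by the factor NF-Y, and the cell cycle homology region, of which TTTGAA is a common core. In replication genes they are E2F sites, of which TTTCCCGC and TTTGGCGC are common forms. Promoters were found in RefSeq (build GRCm38.p6) for 19 of the 22 genes of a mitosis list and 19 of the 24 genes of a DNA replication list. The 150 bases before the start of 4 genes are shown, 5′ to 3′ on the gene's strand, with matches in capitals on either strand (ATTGG is CCAAT read on the other strand, and TTCAAA is TTTGAA). Cdk1, at chr10:69352913-69353062 (minus strand), encodes the kinase that drives entry into mitosis. Cdc20, at chr4:118437344-118437493 (minus strand), encodes an activator of the anaphase-promoting complex. Top2a, at chr11:99024190-99024339 (minus strand), encodes the topoisomerase that untangles chromosomes. Mcm6, at chr1:128359706-128359855 (minus strand), encodes a subunit of the replicative helicase, and its capitals are TTTGGCGC.
Cdk1: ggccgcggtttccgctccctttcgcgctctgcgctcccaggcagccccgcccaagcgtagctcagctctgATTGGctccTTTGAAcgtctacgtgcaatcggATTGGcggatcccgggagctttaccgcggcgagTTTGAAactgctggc
Cdc20: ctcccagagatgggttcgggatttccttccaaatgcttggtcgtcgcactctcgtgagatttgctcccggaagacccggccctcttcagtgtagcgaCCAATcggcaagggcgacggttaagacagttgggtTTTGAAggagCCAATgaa
Top2a: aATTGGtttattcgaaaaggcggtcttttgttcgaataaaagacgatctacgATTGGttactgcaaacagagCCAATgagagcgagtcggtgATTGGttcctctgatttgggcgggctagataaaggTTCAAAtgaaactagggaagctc
Mcm6: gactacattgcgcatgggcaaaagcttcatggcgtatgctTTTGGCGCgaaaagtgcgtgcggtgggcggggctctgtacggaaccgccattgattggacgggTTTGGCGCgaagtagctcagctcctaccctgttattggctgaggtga
Within 250 bases before the start, 17 of the 19 mitosis genes held CCAAT (89.5%) and 8 held TTTGAA (42.1%) on either strand. Among 27025 genes with a RefSeq promoter, the shares were 37.5% and 18.3%. Of the 19 replication genes, 2 held TTTCCCGC (10.5%, against 1.03% of all) and 3 held TTTGGCGC (15.8%, against 0.485%). These are matches of letters only.

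All 22 mitosis genes were higher in tumour, with a median log2 change of 3.83, and in each gene the 6 tumour libraries lay above the 6 lung libraries. Levels are in CPM, counts relative to the scaled size of a library, changes are log2 of tumour over lung, and a called gene had an adjusted p under 0.05. Over all genes tested, 27.7% were called higher and 32.1% lower, and the tissues did not overlap in 38.5%. Cdk1 ranged from 3.29 to 23.2 CPM in lung (median 4.89) and from 57.7 to 104 CPM in tumour (median 69). The paired log2 change was 3.71 ± 0.48 (SE, 6 pairs; edgeR adjusted p = 0.000606). Top2a ranged from 8.63 to 52.3 CPM in lung (median 10.8) and from 196 to 417 CPM in tumour (median 268), a change of 4.33 ± 0.48. Cdc20 changed by 3.38 ± 0.37, Ccnb1, which encodes cyclin B1, by 4.69 ± 0.63, and Plk1, which encodes a kinase of the spindle, by 3.91 ± 0.49. The pairs were not alike. The median difference over the list was 4.05 in M_37_2, 4.00 in M_37_3, 4.07 in M_38_2, 4.38 in M_39_1 and 4.03 in M_39_3, but 1.42 in M_40_2. In that pair the lung was the highest of the 6 lungs and the tumour the lowest of the 6 tumours: the 22 genes summed to 413 CPM in its lung, against 89.1 to 118 CPM in the other 5 lungs, and to 1150 CPM in its tumour, against 1460 to 2240 CPM.

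DNA replication genes followed the same course, with 23 of 24 higher and a median of 2.48. Mcm6 ranged from 27.2 to 46.7 CPM in lung (median 30.8) and from 142 to 220 CPM in tumour (median 178) and changed by 2.45 ± 0.18. Mcm5, another subunit of the helicase, changed by 3.17 ± 0.32, and Mcm10, which acts as replication forks start, by 4.26 ± 0.58. Pcna, the sliding clamp of DNA polymerase, changed less, by 0.95 ± 0.12. Gins2 was the gene that was not called (0.33 ± 0.16, adjusted p = 0.102). The pair medians were 2.57 to 2.77 in 5 pairs and 1.37 in M_40_2. Upstream of replication, 9 of 16 G1 cyclins, kinases and inhibitors were higher and 6 lower. The share lower was near the 32.1% of all genes. Ccne1, which encodes cyclin E1, ranged from 0.827 to 4.47 CPM in lung (median 1.21) and from 11.3 to 22.3 CPM in tumour (median 17.3), a change of 3.56 ± 0.42, and E2f1, which encodes a replication gene activator, changed by 1.72 ± 0.17. Among the inhibitors of cyclin-dependent kinases, Cdkn1c fell by 5.12 on the log2 scale and Cdkn2b by 3.13, whereas Cdkn1a rose by 1.29 ± 0.32.

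Across all genes, 20034 passed the filter on low counts, and 11971 were called at an adjusted p under 0.05, which is 59.8% of those tested. Tumour exceeded lung in 5549 of them (27.7%) and lung exceeded tumour in 6422 (32.1%). Over all genes tested, the change had a median of -0.031 on the log2 scale. Scaled by library size alone, 6672 were higher and 5678 were lower, the median moved to 0.13, and no called gene changed direction. At a fold of 2 or more, 2897 called genes were higher and 5007 lower. The direction was shared by all 6 pairs in 10878 called genes (54.3% of those tested and 90.9% of those called). Another 1057 called genes had a single pair against the other 5. The tumour and lung libraries did not overlap in 7705 genes (38.5%), 3533 of them higher and 4172 lower. With tissue effects this broad, each count over a gene group, above or below, has to be read against 27.7% higher and 32.1% lower.

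Depth was similar over the pairs, from 20608682 to 32765364 counts per library. Libraries of a tissue differed from each other by at least 32.2 times the counting noise (chi-square per degree of freedom), so none was a copy of another. Mitochondrial transcripts made up 1.96% to 5.38% of counts in lung and 0.342% to 1.79% in tumour. Lung markers were high in all 6 lungs. Sftpc, the surfactant protein of type 2 cells, stood at 8560 to 25300 CPM in the 6 lungs, and Scgb1a1, the club cell secretory protein, at 21600 to 98200 CPM. Nothing in the labels says that the pairs are separate animals, so p-values measure the spread between these 6 pairs, which may be technical. Exons of 7913 called genes overlap a gene on the opposite strand, and whether the counting used strand is not given in the sources used here. Among the genes named in the text, the partner held more counts than the gene itself for Cdk1, Cdc20, Ccne1, Gins2, Fosl1, Scgb1c1, Lrrc61 and Atp5f1b, whose values are therefore uncertain.

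Libraries that share a prefix resembled each other little beyond their tissue. After the mean of each tissue was removed, lung and tumour of the same prefix correlated over 20034 genes at r = -0.105 in M_37_2, 0.0881 in M_37_3, 0.231 in M_38_2, 0.0677 in M_39_1, 0.0836 in M_39_3 and 0.333 in M_40_2. These are correlations across genes, which are not independent replicates. Their median of 0.0858 compares with 0.00995 between libraries of different prefixes. The highest of a lung's correlations was with its own tumour in 3 of 6 lungs, and the reverse held for 1 of 6 tumours.

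**Figure D1:**
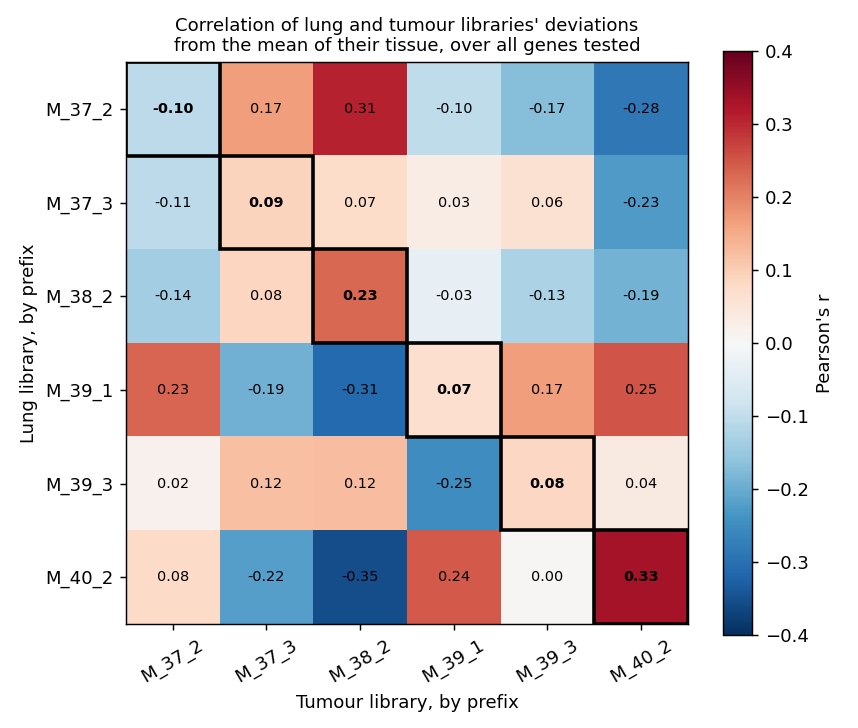
Pearson's r over 20034 genes between each lung library (rows) and each tumour library (columns), after the mean of each tissue was removed; outlined cells share a prefix. The outlined cells range from -0.105 to 0.333, and the other cells from -0.355 to 0.308.

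The prefix term asked the same of single genes. With tissue in the model, 0 of 20034 genes (0%) differed between prefixes at an adjusted p under 0.05 by edgeR, and 1017 did at an unadjusted p under 0.05, a threshold that takes 1002 of 20034 genes when none differs; the likelihood ratio test of DESeq2 called 536. Without the pair M_39_1, edgeR called 1 gene, Ighg1, an immunoglobulin constant region gene (adjusted p = 8.02e-05), which was named after its value was seen. The genes with the smallest p for the prefix were picked for that p and none was called, so their values are given as a description only. Upk1b, which encodes a uroplakin and was higher in lung in all 6 pairs (-4.68 ± 0.22), was highest in M_40_2 in both tissues (143 CPM in lung and 8.51 CPM in tumour) and lowest in M_37_2 in both (8.89 and 0.254 CPM); its adjusted p for the prefix was 0.499. Muc16, a mucin of mesothelium, had 97.7 CPM in the lung and 4.36 CPM in the tumour of M_40_2 and was at 0 counts in both libraries of M_37_2. Dnajb1, which encodes a heat shock cochaperone, stood at 148 and 150 CPM in lung and tumour of M_38_2 and at 42.8 to 75.8 CPM in the other 10 libraries. Hspa1b, a heat shock gene with a near-identical neighbour that makes its counts uncertain, was also highest in M_38_2 in both tissues (251 and 104 CPM). H2bc4, which encodes a histone H2B, was highest there too, with 101 and 67.8 CPM.

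Among the genes called with the block, precision changed little. Over these genes the median standard error of the log2 change was 0.249 with the prefix in the model and 0.265 without it. It was smaller with the prefix for 52.2% of them. These genes were selected by their paired p, which favours a small standard error with the block, so the comparison does not speak for all genes. Without the block 12466 genes were called, of which 11549 were also called with it, all in the same direction, while 422 were called only with the block and 917 only without it. Fold changes of some named genes moved, and those of others hardly did. Dkk2 had a paired change of 6.56 and an unpaired change of 4.95, Rhox5 6.22 and 4.39, and Cyp2f2 -6.55 and -4.15. In contrast, Chrdl1 had -6.24 and -6.22, and Fgfr1 2.80 and 2.78. The paired value is the tissue coefficient of a model that also holds the prefixes, and the unpaired value that of a model without them. Why the values differ for some genes was not tested.

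The largest paired rises included germline, homeobox and secreted factor genes. Nxf3 (ENSMUSG00000057000, chrX:134972848-134986152, build GRCm39), an X-linked gene for an RNA export factor of the germline, ranged from 0 to 4.09 CPM in lung (median 0.0825) and from 11.9 to 53.5 CPM in tumour (median 30.8). Its paired log2 change was 7.10 ± 1.13 (adjusted p = 0.00144). Dkk2 (ENSMUSG00000028031, chr3:131790336-131886065), which encodes a secreted antagonist of Wnt signalling, ranged from 1.14 to 104 CPM in lung (median 5.99) and from 296 to 889 CPM in tumour (median 712) and changed by 6.56 ± 0.90 (adjusted p = 0.000774). Rhox5, a homeobox gene of the reproductive tract, ranged from 0.908 to 60.9 CPM in lung (median 3.17) and from 187 to 322 CPM in tumour (median 268), with a change of 6.22 ± 0.91. Its exons overlap those of Gm61728 on the opposite strand, so its counts are uncertain, as are those of the near-identical copies Rhox2d (6.38), Rhox2g (6.94) and Rhox2h (6.32). Bcat1, which encodes a branched-chain amino acid transaminase, changed by 6.17 ± 1.20, Acsl6, an acyl-CoA synthetase gene, by 6.08 ± 0.77, Tbx15, a T-box factor gene of mesenchyme, by 6.05 ± 0.97, and Syt13, a synaptotagmin gene, by 6.03 ± 0.81. For 9 of these 10 genes M_40_2 gave the smallest difference, and the exception was Rhox2h, whose smallest was in M_37_3. Nxf3, Rhox2d, Rhox2g, Rhox2h, Bcat1, Acsl6, Tbx15 and Syt13 had at least 1 lung at 0 counts. The size and rank of their rises therefore depend on the floor of 3 counts. Under the alternatives the change of Nxf3 ranged from 5.3 to 9.84.

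The largest falls included genes of the airway, stroma, mesothelium and heart muscle. Cyp2f2 (ENSMUSG00000052974, chr7:26819322-26833090), which encodes a cytochrome of club cells, ranged from 2250 to 12200 CPM in lung (median 8070) and from 1.03 to 1830 CPM in tumour (median 43). It changed by -6.55 ± 1.37 (adjusted p = 0.00485), and its exons overlap those of Gm15883. Cyp1a1, a cytochrome induced through the aryl hydrocarbon receptor, changed by -6.50 ± 1.01, and Scgb1c1, a secretoglobin gene, by -6.00 ± 0.94. Inmt, which encodes a methyltransferase typical of lung fibroblasts in mice, changed by -5.94 ± 1.15, and Sfrp2, a secreted Wnt antagonist, by -6.16 ± 0.56. Chrdl1 (ENSMUSG00000031283, chrX:142068670-142177258), a secreted antagonist of bone morphogenetic proteins, had an SD of pair differences of 0.617, the smallest of these genes. Chrdl1 ranged from 11.4 to 23.6 CPM in lung (median 15.6) and from 0.0821 to 0.368 CPM in tumour (median 0.202) and changed by -6.24 ± 0.34 (adjusted p = 6.93e-05). Its tumour levels lay near the floor of 3 counts, which limits how the size and evenness of its fall can be read. Cytl1, which encodes a cytokine-like protein, changed by -6.39 ± 1.01, Upk3b, a mesothelial marker, by -6.36 ± 0.95, and Actc1, the cardiac actin gene, by -6.34 ± 1.15. M_38_2 gave the smallest fall of Cyp2f2, Cyp1a1, Cytl1, Actc1, Scgb1c1 and Inmt. In the tumour of M_39_1, Cyp1a1, Cytl1, Scgb1c1 and Actc1 were at 0 counts, so the size of their falls depends on the floor. Other tumours were at 0 counts too: M_37_2 for Scgb1c1 and Sfrp2, and M_37_3 for Cytl1 and Upk3b. The same held in M_39_3 for Scgb1c1 and Cyp1a1, and in M_40_2 for Actc1.

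**Figure D2:**
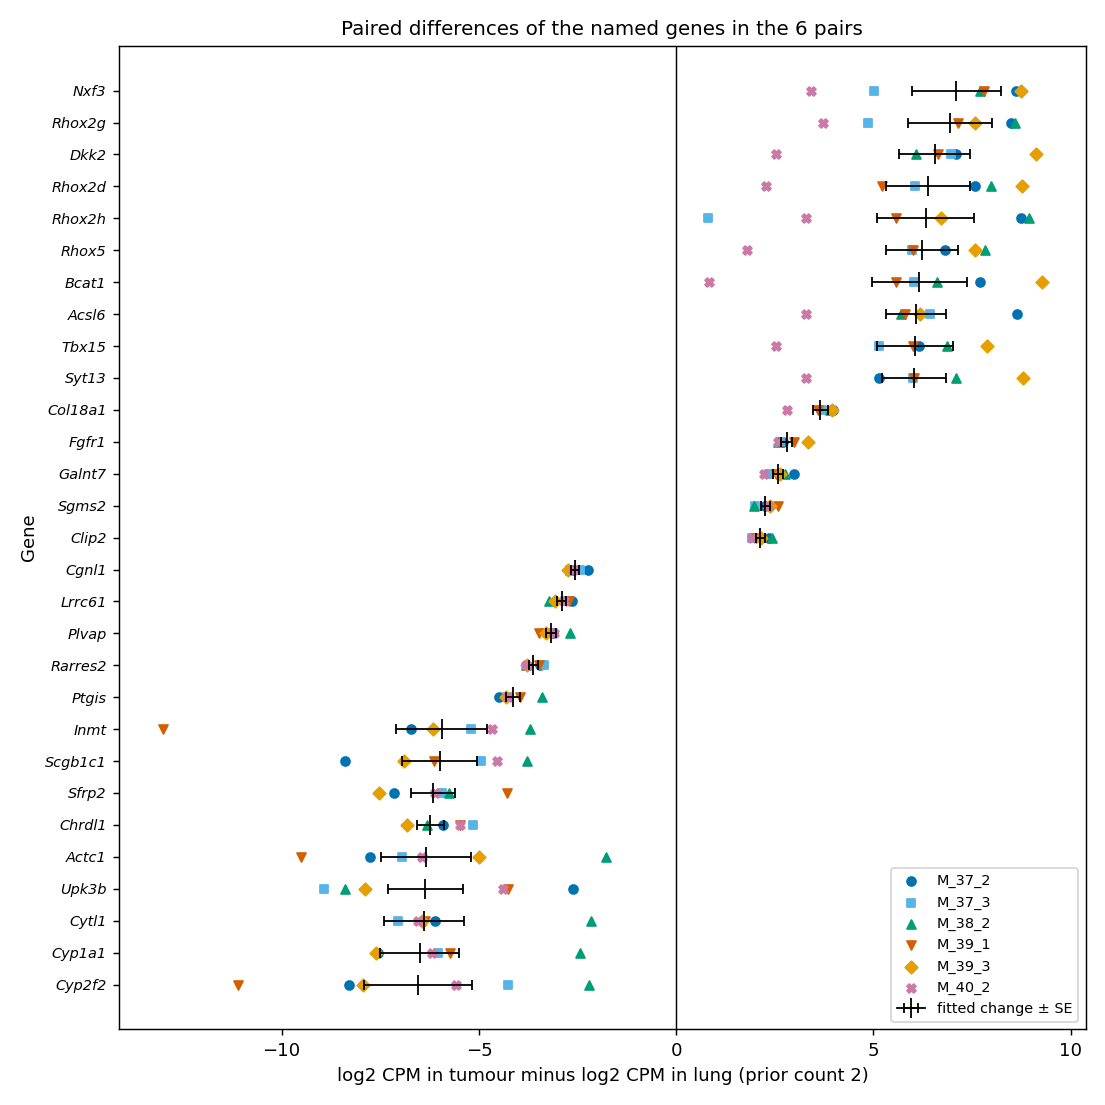
Difference of log2 CPM between tumour and lung (horizontal axis) for the genes named by the rule on tissue changes in each of the 6 pairs (coloured symbols), with the fitted paired change and its standard error (black). For Dkk2 the pair M_40_2 lies at 2.54 and the other 5 between 6.07 and 9.11.

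The genes with the smallest p-values changed less than the largest rises and falls and varied little between pairs. Both traits follow in part from how these sets of genes were picked. Fgfr1 (ENSMUSG00000031565, chr8:26003670-26066824), which encodes a fibroblast growth factor receptor, ranged from 47.2 to 127 CPM in lung (median 73.2) and from 281 to 754 CPM in tumour (median 574). Its paired differences were 2.71, 2.64, 2.57, 2.99, 3.33 and 2.57 in the order M_37_2, M_37_3, M_38_2, M_39_1, M_39_3 and M_40_2, and its change was 2.80 ± 0.14 (adjusted p = 6.21e-05). Col18a1, whose collagen gives rise to endostatin, changed by 3.66 ± 0.19, Galnt7, a gene for an enzyme of O-glycosylation, by 2.59 ± 0.13, Sgms2, a sphingomyelin synthase gene, by 2.25 ± 0.11, and Clip2, a microtubule linker gene, by 2.13 ± 0.11. On the lower side, Cgnl1 (ENSMUSG00000032232, chr9:71533791-71678884), which encodes a junction protein, ranged from 122 to 216 CPM in lung (median 156) and from 19 to 33.6 CPM in tumour (median 27) and changed by -2.57 ± 0.10. Ptgis, the prostacyclin synthase, changed by -4.13 ± 0.17, and Plvap, which encodes the diaphragm protein of fenestrated endothelium, by -3.16 ± 0.13. Rarres2, which encodes chemerin (-3.62 ± 0.11), and Lrrc61 (-2.90 ± 0.12) overlap each other on opposite strands, and their counts cannot be separated where the counting did not use strand. No tumour library of these 10 genes overlapped a lung library, which the choice by p also favours.

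**Figure D3:**
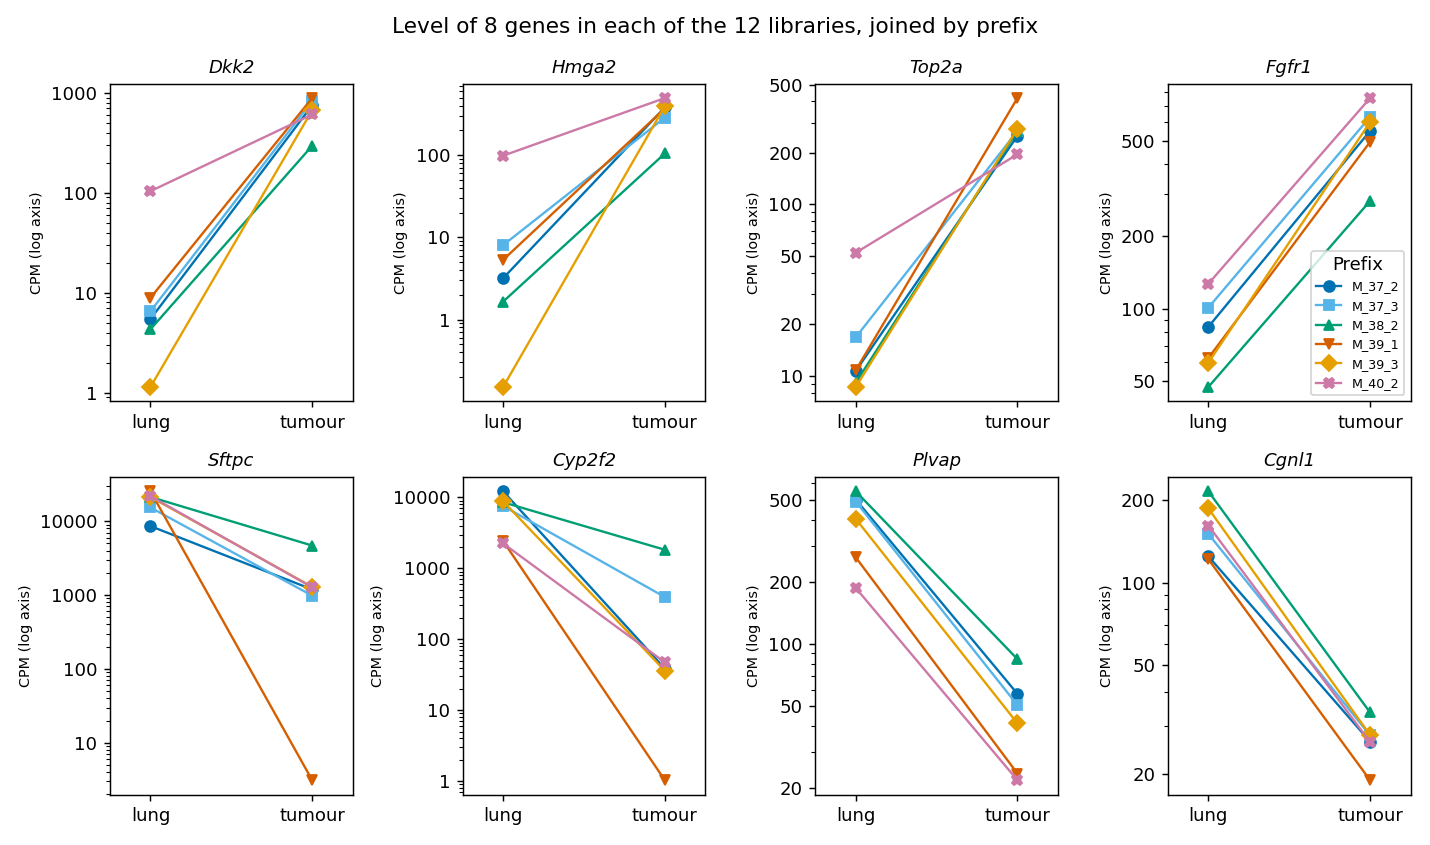
Level in CPM (log axis) of 8 genes in the lung and the tumour library of each prefix, joined by a line per prefix. For Dkk2 and Hmga2 the lung of M_40_2 (104 and 98.7 CPM) stands above the other lungs, for Sftpc and Cyp2f2 the tumours of M_38_2 and M_39_1 lie highest and lowest, and for Fgfr1, Plvap and Cgnl1 the lines run nearly parallel.

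The alveolar type 2 and the club and goblet lists had the highest SD of pair medians of the 44 lists (3.87 and 3.41). All 10 alveolar type 1 genes were lower in tumour, with a median of -3.78, and all 12 ciliated genes, with a median of -3.98. Without the block 9 ciliated genes were lower, with a median of -2.55, and without M_39_3 10 were. Sftpc ranged from 8560 to 25300 CPM in lung (median 21200) and from 3.12 to 4670 CPM in tumour (median 1230), a change of -4.06 ± 1.20 (adjusted p = 0.0211). Ager, the receptor that marks type 1 cells, changed by -4.14 ± 0.98. Hopx, a homeodomain gene of type 1 cells, changed by -3.60 ± 0.24. The tumours differed in Sftpc: M_38_2 had 4670 CPM, M_39_1 had 3.12 CPM and the other 4 tumours 980 to 1290 CPM. In the tumour of M_39_1, Cdh1 and Epcam, adhesion genes that define epithelium, were at 0 counts, which allows up to 0.0908 CPM at a floor of 3 counts, whereas the other tumours had 43.1 to 206 CPM of Cdh1. Of 10 type 2 genes 8 were lower, and the number depended on the pairs used: it was 3 without M_37_3, 2 without M_39_3 or without M_40_2, 5 without M_37_2 and 9 without M_39_1, while the median stayed between -2.29 and -3.52.

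Airway genes followed. Scgb1a1 ranged from 21600 to 98200 CPM in lung (median 52400) and from 2.27 to 16200 CPM in tumour (median 818), a change of -5.70 ± 1.52 (adjusted p = 0.0135). Foxj1, the master regulator of motile cilia, changed by -4.05 ± 1.10. Foxj1 stood at 235 CPM in the tumour of M_38_2 and at 0.151 CPM in that of M_39_1. Of the 10 club and goblet genes, 5 were lower, and 3 without M_37_2, M_39_3 or M_40_2 in turn or without the block. Bpifa1, Muc5b and Scgb3a1, secreted proteins of larger airways, were not called, and each was higher in the tumour than in the lung of M_38_2 (990 against 23.8 CPM for Bpifa1). All 18 genes of xenobiotic metabolism were lower, with a median of -5.27. Fmo2, a flavin monooxygenase gene, changed by -5.24 ± 0.56, and Por, the electron donor of cytochromes P450, by -1.72 ± 0.23.

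Transcription factors that specify lung were lower too. Of 14, 13 were lower. Nkx2-1, the lung lineage factor, ranged from 174 to 242 CPM in lung (median 201) and from 0.0606 to 53.8 CPM in tumour (median 13.9) and changed by -4.11 ± 0.93. Foxf1, a factor of lung mesenchyme and endothelium, changed by -4.46 ± 0.45, and Gata6 by -1.99 ± 0.12. Sox9, a factor of the distal lung bud and of many tumours, was the one that rose: it ranged from 0.248 to 5.54 CPM in lung (median 1.83) and from 28.5 to 62.8 CPM in tumour (median 43.1), a change of 4.88 ± 0.60 (adjusted p = 0.000502). In bulk tissue, fewer cells of a type and less RNA per cell cannot be told apart, here and in the groups that follow.

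Endothelial genes of blood vessels and of lymphatics differed in how even they were. All 15 blood vessel genes were lower in tumour, with a median of -3.44 and pair medians between -4.30 and -2.60. Pecam1, the adhesion molecule CD31, ranged from 297 to 617 CPM in lung (median 570) and from 29.5 to 127 CPM in tumour (median 73.9) and changed by -3.02 ± 0.25 (adjusted p = 0.000143). Tek, which encodes the angiopoietin receptor TIE2, changed by -4.53 ± 0.43, Ramp2, the coreceptor for adrenomedullin, by -4.23 ± 0.36, and Kdr, the main receptor of vascular endothelial growth factor, by -3.44 ± 0.27. Of 5 lymphatic genes 4 were lower, with pair medians from -4.68 in M_39_1 to -0.516 in M_37_3, and 2 were lower without M_37_2, M_38_2, M_39_3 or M_40_2 in turn or with library size as the only scaling. The growth factor of blood vessels, Vegfa, fell by 2.85 on the log2 scale, from a lung median of 345 CPM to a tumour median of 55 CPM. All 5 red blood cell genes were lower, with a median of -2.79.

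Smooth muscle and pericyte genes were lower in 10 of 11 cases, with a median of -3.72. They were lower in 8 cases without M_37_2, in 7 without M_37_3 and in 9 without M_39_1 or M_40_2. The lungs themselves were unequal. Myh11, the smooth muscle myosin gene, stood at 369 and 403 CPM in the lungs of M_37_2 and M_37_3, at 24.7 CPM in that of M_40_2 and at 44.9 to 93.3 CPM in the remaining 3. Its tumours held 0.848 to 14.4 CPM, and it changed by -4.85 ± 0.83. Of 12 resident fibroblast genes 10 were lower, with Tcf21, a factor of lipofibroblasts, at -5.35 ± 0.76, and Dpt, which encodes dermatopontin, was higher (2.36 ± 0.32). Cardiac muscle genes, which mark the pulmonary vein sleeve or attached heart, were lower in 7 of 7 tested cases, and in 5 of 7 without M_37_3 or without M_40_2. Myh6, the alpha myosin gene of heart, lay under the floor of 3 counts (0.124 CPM) in the lung of M_37_2 and at 158 CPM in that of M_39_3. Mesothelial genes were lower in 6 of 7 cases, and in 5 without M_39_1 or without M_40_2, where 1 was higher in the latter. Their summed level was 46.2 CPM in the lung of M_37_2, where Wt1, Lrrn4 and Muc16 were at 0 counts, and 1360 CPM in the lung of M_40_2.

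Matrix genes divided. Of 13 tested genes of tumour-associated fibroblasts and matrix, 6 were higher and 4 lower. Col3a1, the collagen III chain, ranged from 289 to 1420 CPM in lung (median 442) and from 2850 to 10300 CPM in tumour (median 8640), a change of 3.96 ± 0.33 (adjusted p = 0.000143). Fn1, fibronectin, ranged from 119 to 847 CPM in lung (median 304) and from 2970 to 12100 CPM in tumour (median 9170), a change of 4.73 ± 0.35. Thbs2, a thrombospondin gene, rose by 6.01 ± 0.71, and Lrrc15, a surface marker of tumour fibroblasts, by 5.91 ± 0.75. In contrast, Col1a2 changed by -2.26 ± 0.39, Postn, which encodes periostin, by -1.97 ± 0.69, and Cthrc1 by -2.56 ± 0.43, and Col1a1 was not called (-0.26 ± 0.29). Of 15 matrix proteases and inhibitors, 8 were higher and 2 lower, or 1 lower without M_37_2, M_37_3, M_38_2 or M_39_1 in turn. Plau, the urokinase activator of plasminogen, rose by 3.48 ± 0.27, Mmp14, a membrane-bound collagenase, by 2.995 ± 0.23, and Timp3, a protease inhibitor, fell by 4.02 on the log2 scale.

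Lists of growth control had positive medians in all 6 pairs, lowest in M_40_2. Of 14 outputs of RAS and MAP kinase signalling, 12 were higher and 2 lower, or 1 lower without M_39_1, M_39_3 or M_40_2 in turn. Etv4, a transcription factor gene induced by the pathway, ranged from 0.227 to 13.6 CPM in lung (median 1.05) and from 30.7 to 67.8 CPM in tumour (median 41.2), a change of 5.04 ± 0.71 (adjusted p = 0.000841), Dusp6, a feedback phosphatase, changed by 1.23 ± 0.15, and Fosl1, which encodes FRA1, by 4.03 ± 0.64. Myc ranged from 6.29 to 116 CPM in lung (median 13.1) and from 263 to 389 CPM in tumour (median 331), a change of 4.33 ± 0.64. Of 10 tested oncofetal and germline genes 9 were higher. Hmga2, a chromatin protein gene of the embryo, ranged from 0.151 to 98.7 CPM in lung (median 4.25) and from 105 to 496 CPM in tumour (median 376), a change of 6.03 ± 1.05, and H19, an imprinted noncoding RNA gene, changed by 5.74 ± 0.76. All 16 genes of ribosome biogenesis were higher, with a median of 1.85. Nop2, which encodes an rRNA methyltransferase, stood at 18.8 to 28.1 CPM in lung and 85.7 to 103 CPM in tumour.

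Energy metabolism shifted unevenly. Of 16 glycolysis genes 14 were higher. Eno1, an enolase gene, ranged from 140 to 450 CPM in lung (median 205) and from 1070 to 1640 CPM in tumour (median 1280), a change of 2.56 ± 0.29, and Pkm, a pyruvate kinase gene, changed by 2.33 ± 0.21, whereas Aldoa did not pass (0.10 ± 0.15, adjusted p = 0.613). Among nuclear genes of oxidative phosphorylation, Atp5f1b rose by 0.88 ± 0.14, while Cox4i1 was not called (-0.23 ± 0.099). The mitochondrial genes mt-Nd1, mt-Co1, mt-Cytb and mt-Atp6 all fell, mt-Cytb by 2.18 on the log2 scale. For the whole list of 19 genes, 7 were higher and 4 lower, and 3 were higher without M_37_2. Of 13 tested hypoxia genes 6 were higher and 3 lower, or 1 lower without M_39_1, M_39_3 or M_40_2 in turn. Egln3, a hydroxylase that marks hypoxia-inducible factors for decay, rose by 4.39 ± 0.59.

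Clock genes were lower in 13 of 16 cases and higher in 2. Dbp, an output gene of the clock, ranged from 65.8 to 226 CPM in lung (median 133) and from 9.77 to 41.2 CPM in tumour (median 13), a change of -3.14 ± 0.29 (adjusted p = 0.00018), and Hlf changed by -5.62 ± 0.55. Nr1d1, which encodes the repressor REV-ERB alpha, changed by -2.66 ± 0.27. Bmal1, a target of that repressor, ranged from 4.81 to 10.8 CPM in lung (median 6.03) and from 14 to 40.6 CPM in tumour (median 28.8) and rose by 1.87 ± 0.22, and Cry1 rose by 0.63 ± 0.13. The times at which tissue was taken are not given in the sources used here. Among secreted Wnt antagonists, 2 of 8 tested were higher (Dkk2 and Frzb) and 4 lower (Sfrp2, Wif1, Dkk3 and Notum).

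**Figure D4:**
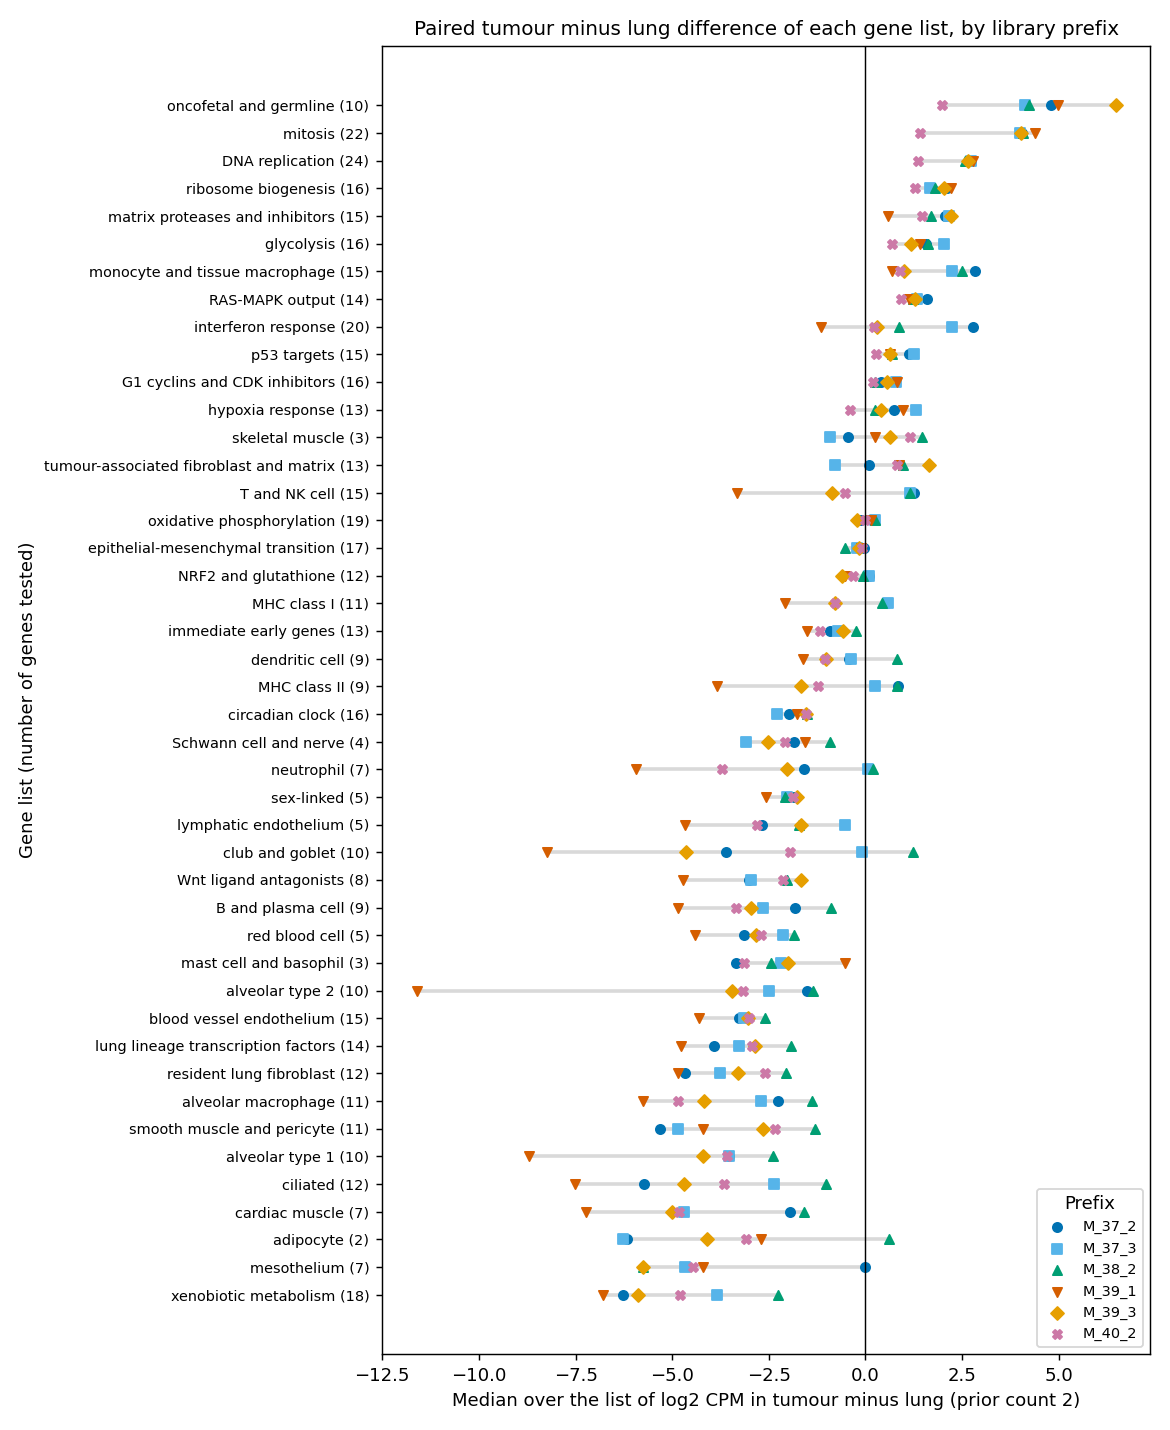
Median difference of log2 CPM between tumour and lung (horizontal axis) over the genes of each of 44 lists (rows), for each of the 6 prefixes (symbols). Mitosis lies at 1.42 in M_40_2 and at 4.00 to 4.38 in the other pairs, and alveolar type 2 at -11.6 in M_39_1 and at -3.44 to -1.36 in the others.

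In several immune gene lists the pairs differed in direction. Of 9 MHC class II genes 1 was called, H2-Ob, lower at -2.10 ± 0.47. The median difference of the list was 0.852 in M_37_2, 0.242 in M_37_3 and 0.819 in M_38_2, the pairs with a VEH tumour, and -3.84 in M_39_1, -1.66 in M_39_3 and -1.22 in M_40_2, the pairs with an HDM tumour. Cd74, the invariant chain of class II molecules, stood at 1230 to 1770 CPM in the first 3 tumours and at 71.3 to 412 CPM in the other 3, and at 705 to 1450 CPM in all 6 lungs. MHC class I genes split in the same manner, with pair medians of 0.426 to 0.576 and of -2.09 to -0.78, and 1 of 11 was called, Nlrc5, their transcriptional activator (1.15 ± 0.43). Nlrc5 was no longer called when any 1 pair other than M_39_1 was left out, or with the size factors of DESeq2. The difference between the pairs with HDM and with VEH tumours was not tested here. These sets of pairs also divide by the leading number of the prefix, which cannot be told apart from the tumour label.

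Of 20 interferon response genes 5 were higher and 0 lower, a share higher that did not exceed the 27.7% of all genes. Without M_39_1, or without the block, 11 were higher, beside 29.5% and 29.1% of all genes in those settings. Cxcl9, a chemokine induced by interferon gamma, ranged from 0.0827 to 3.72 CPM in lung (median 0.73) and from 2.15 to 165 CPM in tumour (median 68.8), a change of 5.09 ± 1.24 (adjusted p = 0.00911). Its tumours held 116 to 165 CPM in M_37_2, M_37_3 and M_38_2 and 2.15 to 21.5 CPM in the others. Of 15 T and NK cell genes 1 was called, Gzma, lower at -1.61 ± 0.44. With M_39_1 left out, 5 were higher and 1 lower, beside 29.5% higher and 28.2% lower of all genes. Without the block there were 2 higher and 1 lower. Without M_39_3 or without M_40_2, 0 were lower, and without M_38_2, 2. Cd3e, a subunit of the T cell receptor complex, was at 0.0606 CPM in the tumour of M_39_1 and at 2.13 to 8.47 CPM in the other 5.

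Macrophage genes separated by type. Of 15 genes of monocytes and tissue macrophages 9 were higher and 0 lower, and 13 were higher without M_39_1. C1qb, a complement subunit made by macrophages, ranged from 18.5 to 72.7 CPM in lung (median 40) and from 168 to 370 CPM in tumour (median 260), a change of 2.66 ± 0.34 (adjusted p = 0.000617), and Spp1, osteopontin, rose by 4.20 ± 0.38. Spp1 is also made by tumour cells. Alveolar macrophage genes were lower in 7 of 11 cases, and in 11 without the block, with Pparg, a nuclear receptor these cells need, at -3.36 ± 0.42. The lungs fell into separate ranges: the 11 genes summed to 5810 to 8370 CPM in the lungs of M_39_1, M_39_3 and M_40_2 and to 255 to 398 CPM in those of M_37_2, M_37_3 and M_38_2. The high sums rest mostly on Chil3, which ranged from 75.7 to 7750 CPM over the 6 lungs. No other gene of the list exceeded 227 CPM in a lung (Atp6v0d2). Jchain, the joining chain of secreted antibodies, took the same course as the sums. It had 593 to 1080 CPM in the lungs of M_39_1, M_39_3 and M_40_2 and 4.48 to 12.6 CPM in the other lungs. The B and plasma cell list, which holds Jchain, summed to 2430 to 4850 CPM in the former lungs and 78.9 to 165 CPM in the latter. The neutrophil list summed to 492 to 845 CPM in the former and 39.8 to 71.7 CPM in the latter. Those sets of lungs do not follow the lungs' own treatment labels, since M_40_2 is labelled VEH and M_37_3 HDM. They do follow the labels of the tumours that share their prefixes, which are HDM for M_39_1, M_39_3 and M_40_2 and VEH for M_37_2, M_37_3 and M_38_2. The same sets also divide by the leading number of the prefix, so tumour label and prefix number cannot be told apart. Whether a treatment label or a library name is wrong for the 2 crossed prefixes was not tested. Neutrophil genes were lower in 4 of 7 tested cases, in 2 without M_37_2 or M_39_3, and in 0 without M_40_2.

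**Figure D5:**
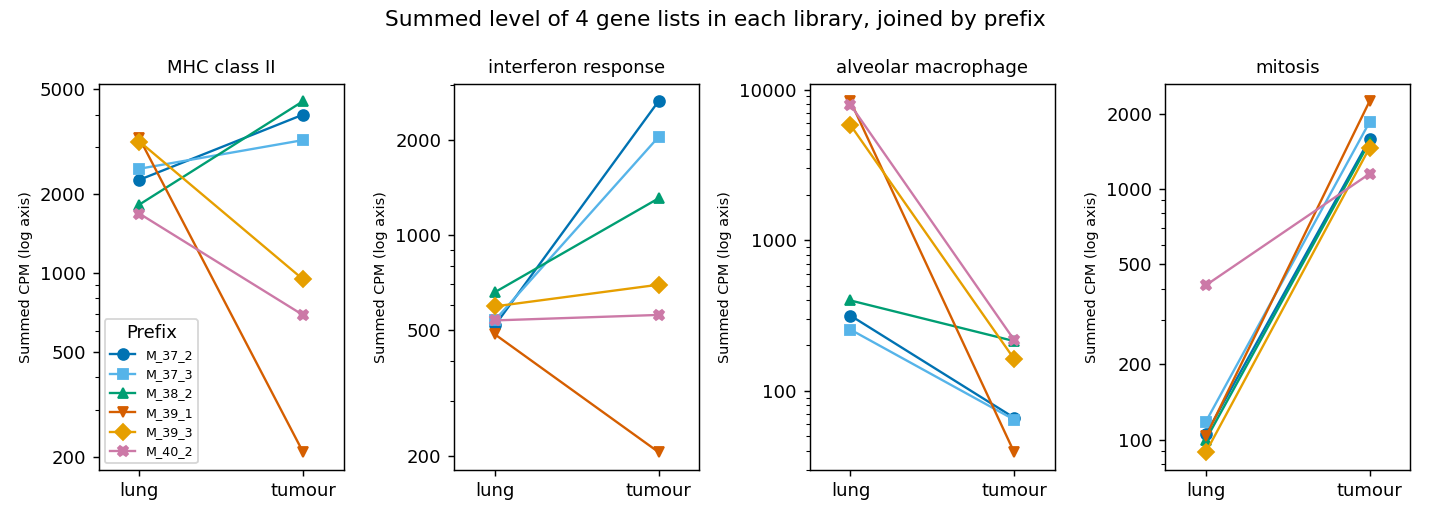
Summed CPM (log axis) of the genes of 4 lists in the lung and tumour library of each prefix, joined by a line per prefix. MHC class II sums rise in 3 pairs and fall in 3, alveolar macrophage sums start from 255 to 398 CPM in 3 lungs and from 5810 to 8370 CPM in the other 3, and mitosis sums start highest in the lung of M_40_2. The high alveolar macrophage sums rest mostly on Chil3.

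Sex-linked genes differed between the tissues in every pair. Ddx3y, a helicase gene of the Y chromosome, ranged from 50.6 to 70.9 CPM in lung (median 64.4) and from 9.05 to 14.6 CPM in tumour (median 12.6) and changed by -2.35 ± 0.12 (adjusted p = 6.21e-05). Kdm5d, Uty and Eif2s3y, also on the Y chromosome, changed by -2.14, -2.13 and -2.09. Xist, the noncoding RNA that silences an X chromosome in female cells, moved the other way, from 0.568 to 3.68 CPM in lung (median 1.38) and from 19.7 to 389 CPM in tumour (median 46.7), a change of 5.38 ± 0.78 (adjusted p = 0.000986). Xist overlaps Tsix on the opposite strand. Both directions held in all 6 pairs without overlap between tissues.

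How far the pairs carried the overall pattern can be read from their size. Over called genes the median size of the paired log2 difference was 1.59 in M_37_2, 1.42 in M_37_3, 1.09 in M_38_2, 1.63 in M_39_1, 1.47 in M_39_3 and 1.16 in M_40_2. The direction of the called change was shown by 96.4% of called genes in M_38_2 and by 98.4% to 99.2% in the other pairs. Where a single pair opposed the rest, it was M_38_2 for 412 genes, M_40_2 for 178 and M_39_1 for 154, and 89 to 113 for each of the other 3. On the first principal component, which held 81.8% of the variance, the lungs lay between -85.2 and -43.3, with that of M_40_2 nearest to the tumours, and 5 tumours between 38.5 and 154. The tumour of M_38_2 lay at -2.19.

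The pairs M_38_2 and M_40_2 had the smallest differences, and different libraries departed in them. In M_38_2 the tumour library had high levels of lung genes: its summed level was 9060 CPM for the type 2 list, against 183 to 2940 CPM in the other tumours, and 569 CPM for the ciliated list, against 19.9 to 200 CPM. In M_40_2 the lung held high levels of genes that were otherwise found in tumours: Dkk2 at 104 CPM against 1.14 to 8.9 CPM in the other lungs, Hmga2 at 98.7 against 0.151 to 8.03 CPM, Myc at 116 against 6.29 to 26 CPM, and Thbs2 at 143 against 2.95 to 20.1 CPM. The same lung had 1.64 CPM of Actg2, a smooth muscle actin gene, and 37.2 CPM of Wt1, the lowest and the highest of the 6. The part of other tissue in either library was not tested. Without both pairs 10477 genes were called, mitosis stood at 22 of 22 higher with a median of 4.26, and the oncofetal and germline list at a median of 6.42 in place of 4.70. When each library had to reach 10 counts, the median of that list was 2.65.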

How the data were processed

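RNA of 6 tumour and 6 normal adjacent lung samples was sequenced from stranded libraries, per the labels' protocols, which name both poly(A) selection and rRNA depletion without saying which was used. The deposited table holds raw counts per gene and library, per the file headers. The submitters' processing notes name Trim Galore, STAR, featureCounts, Subread and build mm39, without versions. Of 78298 gene identifiers, 78168 matched GENCODE M39 (GRCm39), which need not be the authors' annotation; the others held 0.143% of counts. Prefixes were read from the library names and treatment was ignored.

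Counts were tested with edgeR 4.0.16 (R 4.3.3) by its quasi-likelihood test with prefix and tissue in the model, TMM scaling, a filter with a minimum count of 10, 5 residual degrees of freedom, and Benjamini-Hochberg adjustment over 20034 genes at 0.05. Standard errors were derived from the log2 change and its F statistic. The prefix term was tested in the same model. CPM values carry the TMM scaling, and paired differences use log2 CPM with a prior count of 2. The rule for named genes, among genes with a symbol that is no predicted or receptor segment name and an average log2 CPM of at least 3, took the 10 largest called rises and the 10 largest called falls with the same direction in all pairs, the 5 smallest p-values in each direction, and the 5 smallest p-values of the prefix term; members of the gene lists were named beside these. A gene that the rule names is not reported here. The members of the comparison and the 44 gene lists were chosen with earlier results of these data known. In counts simulated for the paired test on 19924 genes, 69% of 100 genes with a log2 change of 1 and 100% of 96 genes with a change of 2 were called, as were 11 of 19728 unchanged genes. The simulation gave all genes the same dispersion, below the fitted common value, and held no outlying pairs. Its shares therefore do not carry over to these data. The prefixes are not shown by the labels to mark animals, and 2 of 6 same-prefix correlations of deviations exceeded 0.1. Alternatives were other scalings, filters and tools (DESeq2 1.42.0, limma 3.58.1), other models, and leaving out each prefix. Floors of 3 counts cover counting error only.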

Additional observations from a re-analysis of the deposited data

Results flagged for a closer look

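Paired differences of 35 genes and median paired differences of 44 lists were checked for a pair that stands apart from the other 5 (Dixon's ratio for 6 values above its 95% critical value, which chance exceeds in about 1 group in 20). Of these 79 items, 12 had such a pair.

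In M_40_2, whose lung library had high levels of genes that were higher in tumours, the mitosis list had a median difference of 1.42 (4.00 to 4.38 in the other pairs) and the DNA replication list 1.37 (2.57 to 2.77). Rhox5 stood at 1.80 there (5.98 to 7.82) and Col18a1 at 2.81 (3.59 to 3.98). In M_38_2, Cyp1a1 stood at -2.45 (-7.62 to -5.73), Cytl1 at -2.17 (-7.04 to -6.12) and the epithelial-mesenchymal transition list at -0.522 (-0.21 to -0.0442). In M_39_1, the alveolar type 2 list had a median of -11.6 (-3.44 to -1.36), the alveolar type 1 list -8.69 (-4.21 to -2.39) and Inmt a difference of -13.0 (-6.71 to -3.71). In M_37_2, Muc16 had a difference of 0 because both libraries were at 0 counts (-5.76 to -4.46 in the other pairs), and the mesothelium list had a median of 0 (-5.76 to -4.21).

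In 3 lists the pairs with a VEH tumour all had positive medians and the pairs with an HDM tumour all negative ones. The mean of the HDM tumour pairs minus that of the VEH tumour pairs was -2.77 for T and NK cell genes, -2.88 for MHC class II and -1.74 for MHC class I. These differences were not tested, and the tumour label cannot be told apart from the leading number of the prefix.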

How the results depend on the processing

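The number of genes called between tumour and lung stayed within 1.5 times the reported 11971 under every alternative run. It was 12466 with no replicate block, 12192 with the replicate number of the titles as the block, 11590 with treatment added to the prefix block, 12922 with 4 group coefficients, 11886 with DESeq2 size factors, 12350 with library size only, 11759 without a filter on low counts, 9032 when each library had to reach 10 counts, 12941 with DESeq2 and 12399 with limma-voom. It was 8786 without the 2 prefixes whose treatment labels differ, 10477 without M_38_2 and M_40_2 (chosen after seeing the data), and 10735 to 11674 when each prefix was left out. The prefix term called 0 genes as reported, 536 with DESeq2, and 0 to 1 when each prefix was left out, with the 1 gene called without M_39_1; the cause was not tested. The 30 named tissue genes kept their direction and their call in all 523 alternative values, with a largest adjusted p of 0.0399 for Actc1. They were picked for a call and the same direction in all pairs, which favours such agreement. A gene that the filter of an alternative dropped gave no value there. List medians moved by no more than the SD of the pair medians in 780 of 791 values. The Wnt antagonist median turned from -2.50 to 1.01 when each library had to reach 10 counts, and the oncofetal and germline median from 4.70 to 2.65, under a filter that tests fewer genes. Depth limits genes near the floor of 3 counts, 0.0908 to 0.138 CPM per library.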

Other observations

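Of 17 genes of the epithelial-mesenchymal transition, 6 were higher in tumour and 7 lower, with a median of -0.0045, and 4 were lower without M_37_2, M_39_3 or M_40_2 in turn. Twist1, a factor that promotes the mesenchymal state, ranged from 0.254 to 8.94 CPM in lung (median 0.678) and from 47.7 to 110 CPM in tumour (median 52.6), a change of 6.00 ± 0.79 (adjusted p = 0.000666), and Cdh2, which encodes N-cadherin, rose by 2.05 ± 0.24. Cldn3, a tight junction gene, changed by -3.96 ± 0.81. The epithelial keratin genes Krt8 (adjusted p = 0.988) and Krt18 (adjusted p = 0.0662) were not called, with tumour medians of 321 and 206 CPM beside lung medians of 352 and 152 CPM. Zeb1, a factor of the mesenchymal state, was not called either (adjusted p = 0.978).

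Of 15 p53 target genes 10 were higher and 4 lower. Eda2r, a receptor gene, rose by 3.57 ± 0.35 and Zmat3, an RNA-binding protein gene, by 2.07 ± 0.16, whereas Perp, a desmosome gene, changed by -3.75 ± 0.87. Of 13 immediate early genes 8 were lower and 0 higher, or 1 higher without M_39_1 or M_40_2 in turn or with library size as the only scaling, with Dusp1, a phosphatase gene of stress signalling, at -2.15 ± 0.19 and Egr1 not called (-0.27 ± 0.42). Of 9 dendritic cell genes, Fscn1, which is also expressed by mesenchymal and tumour cells, was higher (3.61 ± 0.30), and Cd209a (-3.30 ± 0.60) and Zbtb46 (-3.02 ± 0.23) were lower.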
